A study of Mus musculus with 16 samples.

Results

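The 10 genes described here are neutrophil granule and marker genes, chosen by name with earlier results of these data known: S100a8, S100a9, Ngp, Ltf, Camp, Lcn2, Retnlg, Ly6g, Mmp8 and Mmp9. All 10 were found among the 53850 genes of the table by their symbols, and all 10 passed the filter on low values, which asked for at least 10 in at least 4 libraries. S100a8, S100a9, Ngp, Ltf, Camp and Lcn2 would pass it without males on PLX3397. Retnlg, Ly6g, Mmp8 and Mmp9 reached 10 in only 0, 1, 2 and 2 libraries outside males on PLX3397, and so passed through that group. Cortical microglia of young C57BL/6J mice were sorted by fluorescence-activated cell sorting, and their RNA was sequenced in 16 libraries. The groups, each of 4 libraries, were females on PLX3397 chow, females on control chow, males on PLX3397 chow and males on control chow, all kept on their chow for 1 week. PLX3397 inhibits the CSF1 receptor, on which microglia depend for survival, and the study asked why its depletion of microglia differs between the sexes. No transgene or other allele was named for any group. Cells that remained after PLX3397 were the ones sorted and sequenced.

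Neutrophils are short-lived white blood cells made in the bone marrow. During maturation they fill their granules in waves: primary (azurophil) granules with myeloperoxidase and elastase first, secondary (specific) granules with lactoferrin, cathelicidin and lipocalin 2 next, and gelatinase granules last, so the mix of granule transcripts reflects the stage of the cell. Neutrophils are sparse in the parenchyma of healthy brain, but are found in its vessels, its meninges and the marrow of the skull.

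Levels are given as normalised read counts as deposited. Totals per library lay between 32641500 and 44162200, and the spacing of low values put 1 read at 0.517 to 1.88 normalised counts, or about 22200000 to 78400000 reads per library. The labels did not say whether the libraries of a group came from separate animals, so p-values measure the spread between these samples. Microglia markers such as P2ry12 and Tmem119 were abundant in every library, with a summed level of 10 such genes between 1107880 and 2675600. Ddx3y matched the labelled sex in every library, while Xist stood at 516 in male control replicate 4, against 14.7 to 31.4 in the other male controls. Neither sex nor chow could be told apart from the order of the submitters' sample codes. The codes ran through males on PLX3397, male controls, females on PLX3397 and female controls, 1 group after the other. In sorted bulk samples, fewer cells of a type and less RNA per cell cannot be told apart.

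The 10 genes were highest in males on PLX3397, lower and uneven in females on PLX3397 and in male controls, and at or near 0 in female controls. Their summed level was 1106, 867, 868 and 3284 in females on PLX3397, and 6.01, 4.97, 1.30 and 0 in female controls. It was 10471, 11707, 74506 and 17945 in males on PLX3397, and 3473, 813, 339.6 and 3350.4 in male controls. In male PLX3397 replicate 3 these genes took 0.212% of all normalised counts, against 0.0269% to 0.0453% in the other males on PLX3397. In every female control the number of these genes above 0 was at most 1.

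**Figure D1:**
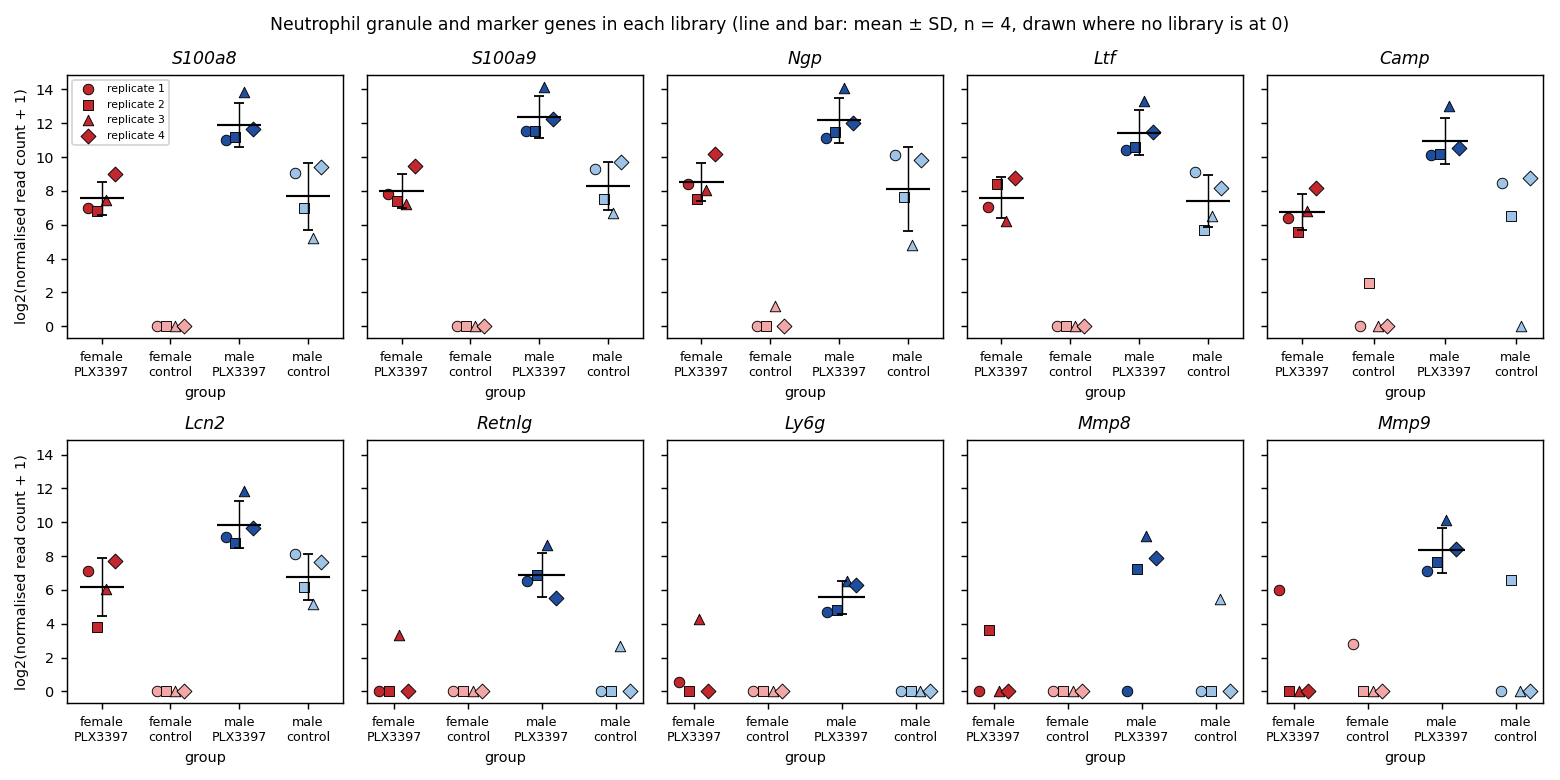
Level of each gene in each library as log2(normalised read count + 1), by group, with the 4 replicates as symbols and the mean ± SD where no library was at 0. Males on PLX3397 sit above the other groups for most genes, replicate 3 is the highest of them for all 10, and female controls lie at or near 0.

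The first pair, S100a8 and S100a9, encodes the 2 subunits of calprotectin, a calcium- and zinc-binding complex that makes up much of the neutrophil cytosol and is also made by monocytes. S100a8 measured 128, 111, 178 and 499 in females on PLX3397, and was listed at 0 in all 4 female controls. It measured 2020.5, 2305, 14419 and 3184 in males on PLX3397, and 525, 127, 35.8 and 687 in male controls. The groups of each chow comparison did not overlap. Against male controls, S100a8 rose in males on PLX3397 by a log2 fold change of 4.24 ± 0.80 (SE, n = 4 per group, on log2(value + 1); limma adjusted p = 0.0019). It also rose in females on PLX3397 (limma adjusted p = 2.2e-05), where no fold is given because the controls were listed at 0.

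S100a9 measured 226, 170.1, 147 and 712 in females on PLX3397, and was listed at 0 in all 4 female controls. It measured 2951, 3005, 18393 and 4833 in males on PLX3397, and 619.6, 180.4, 102 and 829 in male controls. As for its partner, the lowest library on PLX3397 in each sex lay above the highest control of that sex. The log2 fold change in males was 4.08 ± 0.68 (SE; limma adjusted p = 0.00067), and the limma adjusted p in females was 2.7e-06. S100a8 and S100a9 are neighbours among the coding genes of mouse chromosome 3.

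Ngp, the neutrophilic granule protein, and Ltf, the iron-binding lactoferrin, are made in the secondary granule wave. Ngp measured 336, 183, 265 and 1142 in females on PLX3397, and 0, 0, 1.30 and 0 in female controls. It measured 2207, 2805, 17562 and 4068 in males on PLX3397, and 1129, 198, 27.0 and 919.8 in male controls. Replicate 4 of females and replicate 3 of males were the highest on PLX3397, and the groups did not overlap in either sex. Ngp rose in males (log2 fold change 4.06 ± 0.96, SE; limma adjusted p = 0.0097) and in females (limma adjusted p = 5.5e-05). Ltf measured 132, 332, 72.3 and 440.2 in females on PLX3397, and was listed at 0 in all 4 female controls. It measured 1378, 1519, 10016 and 2837 in males on PLX3397, and 562, 51.3, 91.4 and 291 in male controls. Ltf rose in males (log2 fold change 4.05 ± 0.74, SE; limma adjusted p = 0.0016) and in females (limma adjusted p = 9.5e-06), again with no overlap in either sex.

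The promoter windows of these 4 genes are shown because they are the calprotectin pair and the leading secondary granule genes, and their levels took the same order over the 4 males on PLX3397. Each runs from 250 bases before to 50 after the annotated start, 5′ to 3′ on the gene's strand, from RefSeq with build GRCm38.p6. The windows are chr3:90668821-90669120 (plus strand) for S100a8, chr3:90695672-90695971 (minus strand) for S100a9, chr9:110419558-110419857 (plus strand) for Ngp and chr9:111019042-111019341 (plus strand) for Ltf. Capitals mark the letters TTNNGNAA, a form of the site of C/EBP factors, and GAGGAA, a core of the site of PU.1, on either strand (TTNCNNAA and TTCCTC on the reverse one).
S100a8: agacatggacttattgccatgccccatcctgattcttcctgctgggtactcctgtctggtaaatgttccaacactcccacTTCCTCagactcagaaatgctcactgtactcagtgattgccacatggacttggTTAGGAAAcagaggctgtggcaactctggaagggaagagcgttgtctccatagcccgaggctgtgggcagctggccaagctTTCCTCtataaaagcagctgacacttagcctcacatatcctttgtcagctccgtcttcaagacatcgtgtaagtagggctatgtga
S100a9: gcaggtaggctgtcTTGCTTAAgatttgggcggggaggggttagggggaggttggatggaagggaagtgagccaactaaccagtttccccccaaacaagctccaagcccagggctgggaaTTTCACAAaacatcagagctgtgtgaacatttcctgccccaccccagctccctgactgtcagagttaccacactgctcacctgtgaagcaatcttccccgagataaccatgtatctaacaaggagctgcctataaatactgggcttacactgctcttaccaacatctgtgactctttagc
Ngp: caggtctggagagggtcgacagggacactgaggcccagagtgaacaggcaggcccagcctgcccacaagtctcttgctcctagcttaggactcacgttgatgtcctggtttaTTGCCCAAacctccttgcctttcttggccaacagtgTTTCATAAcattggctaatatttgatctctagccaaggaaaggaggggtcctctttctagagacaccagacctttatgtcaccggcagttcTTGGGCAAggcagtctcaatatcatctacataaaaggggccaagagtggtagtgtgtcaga
Ltf: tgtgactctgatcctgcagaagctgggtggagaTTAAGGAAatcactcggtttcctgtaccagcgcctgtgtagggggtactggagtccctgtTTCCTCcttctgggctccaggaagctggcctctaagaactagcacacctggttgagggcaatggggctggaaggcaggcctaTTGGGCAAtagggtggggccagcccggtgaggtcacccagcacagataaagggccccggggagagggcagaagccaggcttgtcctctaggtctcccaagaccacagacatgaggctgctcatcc
C/EBP epsilon and PU.1 are factors of granulocyte differentiation. A window was found for 9 of the 10 genes, and Mmp9 had none. TTNNGNAA was present for 8 of these 9 genes, and in 40.7% of all 32851 promoter windows of this length. GAGGAA was present for 5 genes, and in 28.3% of all windows. Both were present for 5 genes, and in 11.8% of all windows, while Camp had neither. No 2 of these matches overlapped each other. A match describes letters only and is no evidence of binding.

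Camp encodes the cathelicidin antimicrobial peptide of secondary granules, and Lcn2 encodes lipocalin 2, which binds bacterial iron carriers and is also made by astrocytes and endothelium in inflammation. Camp measured 82.7, 47.0, 113 and 283 in females on PLX3397, and 0, 4.97, 0 and 0 in female controls. It measured 1106, 1148, 8153 and 1509.7 in males on PLX3397, and 358, 88.7, 0 and 426 in male controls. Camp rose in both sexes, with a log2 fold change of 5.03 ± 1.42 in males (SE; limma adjusted p = 0.029) and a limma adjusted p of 0.017 in females. Lcn2 measured 139, 13.1, 65.9 and 208 in females on PLX3397, and was listed at 0 in all 4 female controls. It measured 553, 437, 3739 and 815 in males on PLX3397, and 279.7, 72.7, 34.3 and 198 in male controls. Lcn2 rose in males (log2 fold change 3.08 ± 0.82, SE; limma adjusted p = 0.021) and in females (limma adjusted p = 0.00020). In males, the call of Camp was lost without male PLX3397 replicate 3 (limma adjusted p = 0.095) or male control replicate 2 (0.053). That of Lcn2 was lost without male PLX3397 replicate 3 (limma adjusted p = 0.079), male control replicate 2 (0.062) or male control replicate 3 (0.073).

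Ly6g, the surface protein that antibodies against mouse neutrophils recognise, and Retnlg, a resistin-like secreted protein of mouse neutrophils, are markers rather than secondary granule contents. Ly6g measured 0.465, 0, 18.1 and 0 in females on PLX3397, 24.5, 26.7, 92.1 and 76.2 in males on PLX3397, and was listed at 0 in all 8 controls. Ly6g rose in males on PLX3397 (limma adjusted p = 0.00067), whose libraries all lay above every other library, and did not pass the test in females (limma adjusted p = 0.58). Retnlg measured 0, 0, 9.18 and 0 in females on PLX3397, and was listed at 0 in all 4 female controls. It measured 92.6, 116, 399 and 45.3 in males on PLX3397, and 0, 0, 5.41 and 0 in male controls. Both genes entered the test through males on PLX3397, the group in which they were high. Without a filter, their limma adjusted p in males was 0.00031 for Ly6g and 0.00028 for Retnlg. The log2 fold change of Retnlg in males was 6.23 ± 0.94 (SE; limma adjusted p = 0.00029), and in females it did not pass the test (limma adjusted p = 0.74).

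Mmp8, the neutrophil collagenase, and Mmp9, gelatinase B, are matrix metalloproteinases stored in specific and gelatinase granules. Mmp8 measured 0, 11.3, 0 and 0 in females on PLX3397, and was listed at 0 in all 4 female controls. It measured 0, 147, 588 and 238 in males on PLX3397, and 0, 0, 43.6 and 0 in male controls. The male groups overlapped through replicate 1 on PLX3397, and Mmp8 did not pass the test in males (log2 fold change 4.71 ± 1.70, SE; limma adjusted p = 0.090) or in females (limma adjusted p = 0.86). Its limma adjusted p in males was 0.0031 without that replicate and 0.031 without male control replicate 3. Mmp9 measured 62.3, 0, 0 and 0 in females on PLX3397, and 6.01, 0, 0 and 0 in female controls. It measured 138, 199, 1146 and 340.3 in males on PLX3397, and 0, 94.6, 0 and 0 in male controls. Mmp9 rose in males (log2 fold change 6.69 ± 1.54, SE; limma adjusted p = 0.0084, and 0.016 without a filter), the group through which it entered the test, and did not pass the test in females (limma adjusted p = 0.87).

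In males, then, 9 of the 10 genes were called higher on PLX3397 and 0 lower, where 4.16% of the 19594 genes tested were called higher and 7.52% lower. Of the 6 genes that pass the filter without males on PLX3397, 6 were called. The other 3 calls, of Retnlg, Ly6g and Mmp9, are of genes that passed it only through that group, so the count of 9 is a description and is not read against the background. Without a filter 8 were called, Camp being lost (limma adjusted p = 0.054). Over all genes the split was 815 higher to 1474 lower as deposited and 1348 to 917 with equal library totals, under which the median log2 fold change of all genes in males was 0.177, against 0.0212 as deposited. The same 9 had groups that did not overlap, as had 7.71% of all genes tested in that direction. Retnlg, Ly6g and Mmp9 are among them, so this count too is a description and is not read against that share. Without male PLX3397 replicate 3, the library with the highest level of all 10 genes, 7 of 10 were called higher, as were 7 without male control replicate 2. In females, 6 of the 10 were called higher on PLX3397 and 0 lower, where 2.67% of all genes tested were called higher and as many lower. These were S100a8, S100a9, Ngp, Ltf, Camp and Lcn2, and their groups did not overlap, as for 5.13% of all genes tested. The estimated reads behind the S100a8 values of females on PLX3397 were about 222, 59, 152 and 465. With voom weights, which give low values less weight, all 6 female calls were lost, with limma adjusted p between 0.38 and 0.72, while 9 of 10 male calls were made.

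The difference between the female and the male response to PLX3397 was tested directly, and 0 of the 10 genes were called, as were 0 of all genes tested (0%; limma adjusted p of the 10 between 0.21 and 0.90), and 0 of the 10 with voom weights. At an unadjusted p under 0.05 the counts were 8 of 10 and 2010 of all genes. S100a8, S100a9, Ngp, Ltf, Camp and Lcn2 had the larger log2 response in females, whose controls lay at or near 0, and Retnlg, Ly6g, Mmp8 and Mmp9 had the larger one in males. With controls at or near 0 the size of a log2 response depends on the value added before the log. For Camp the difference changed sign with pseudocount 5 (-0.20). These directions are therefore not read as a sex difference. Male controls of the last 4 genes were themselves listed at 0 in at least 3 of 4 libraries.

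Between the sexes on PLX3397, 8 of the 10 genes were lower in females than in males and 0 higher, where 1.15% of all genes tested were called lower and 4.28% higher. Of the 6 genes that pass the filter without males on PLX3397, 5 were lower, and the other 3 calls are of genes that passed it only through those males. The count was 3 with the groups compared alone, 5 with voom weights and 7 without a filter. Over all genes the split was 838 higher to 226 lower as deposited, 265 to 341 with upper-quartile scaling and 196 to 375 with equal library totals. S100a9 differed by a log2 fold change of -4.39 ± 0.68 (SE, females minus males; limma adjusted p = 0.0040). S100a8 differed by -4.33 ± 0.80 (limma adjusted p = 0.0079), Ltf by -3.84 ± 0.74 (limma adjusted p = 0.0099), Lcn2 by -3.68 ± 0.82 (limma adjusted p = 0.019) and Ngp by -3.63 ± 0.96 (limma adjusted p = 0.039). Retnlg, Ly6g and Mmp9 were called lower as well (limma adjusted p = 0.0041, 0.015 and 0.020, and 0.0048, 0.013 and 0.036 without a filter). Camp and Mmp8 did not pass the test (limma adjusted p = 0.096 and 0.089). For every gene but Mmp8 the highest female library lay below the lowest male one, which held for 5.36% of all genes tested. Retnlg, Ly6g and Mmp9, which passed the filter only through those males, are among them. This count is therefore a description and is not read against that share. Without male PLX3397 replicate 3 the count was 4, namely S100a8, S100a9, Ltf and Retnlg. The call of Ngp was lost without any one of 7 libraries (limma adjusted p between 0.051 and 0.12), without a filter (0.068) and under a replicate block (0.054). That of Mmp9 was lost without male PLX3397 replicate 2 or 3 or female PLX3397 replicate 2 or 3 (between 0.051 and 0.065), and those of Lcn2 and Ly6g without male PLX3397 replicate 3 (0.062 and 0.057). Camp passed without male control replicate 3 (0.010), and Mmp8 without male PLX3397 replicate 1 (0.0065).

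On control chow, 5 of the 10 genes were lower in females than in males, where 0.051% of all genes tested, or 10 genes, were called lower and 0.0153% higher. They were S100a9 (limma adjusted p = 5.3e-06), Ltf (6.5e-05), S100a8 (9.2e-05), Lcn2 (0.00067) and Ngp (0.00070). S100a9, Ltf, S100a8 and Lcn2 were listed at 0 in all 4 female controls, which add no spread to the variance that the groups share. The limma p-values of these genes can therefore overstate the evidence, here and in the other comparisons. All 5 had groups that did not overlap, as had 1.80% of all genes tested. The other 5 genes called lower were Eif2s3y, Ddx3y, Kdm5d and Uty, which lie on the Y chromosome, and Gm4017. Camp did not pass the test (limma adjusted p = 0.70), with male control replicate 3 at 0, and passed without that library (0.00046). Female controls had fewer estimated reads, at about 29300000 to 38600000, than male controls, at about 42200000 to 78400000, and the part of depth in the values at 0 was not tested. In male control replicate 3, the deepest library, the summed level was the lowest of the male controls. With voom weights the count was 0 (limma adjusted p = 0.96 for each of the 5).

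In males on PLX3397, levels ran from replicate 3 as the highest through 4 and 2 to 1 as the lowest for all of the 10 genes but Lcn2, lowest in replicate 2, and Retnlg, lowest in replicate 4. Replicate 3 was highest for all 10 genes, at 3.45 to 7.10 times the median of the other 3 libraries, with a median of 6.19. Within a library, the ratio of S100a8 to S100a9 was 0.659 to 0.784 in the 4 males on PLX3397, and that of Ngp was 0.748 to 0.955. The ratio of Ltf was 0.467 to 0.587, that of Camp 0.312 to 0.443 and that of Lcn2 0.145 to 0.203. For these 5 genes the highest ratio was 1.19 to 1.42 times the lowest, over libraries whose levels differed far more. The ratios were wider in the other groups: S100a8 to S100a9 ran over 0.565 to 1.21 in females on PLX3397 and 0.351 to 0.847 in male controls. Ngp to S100a9 was above 1 in all 4 females on PLX3397, at 1.07 to 1.80, and below 1 in all 4 males on PLX3397.

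**Figure D2:**
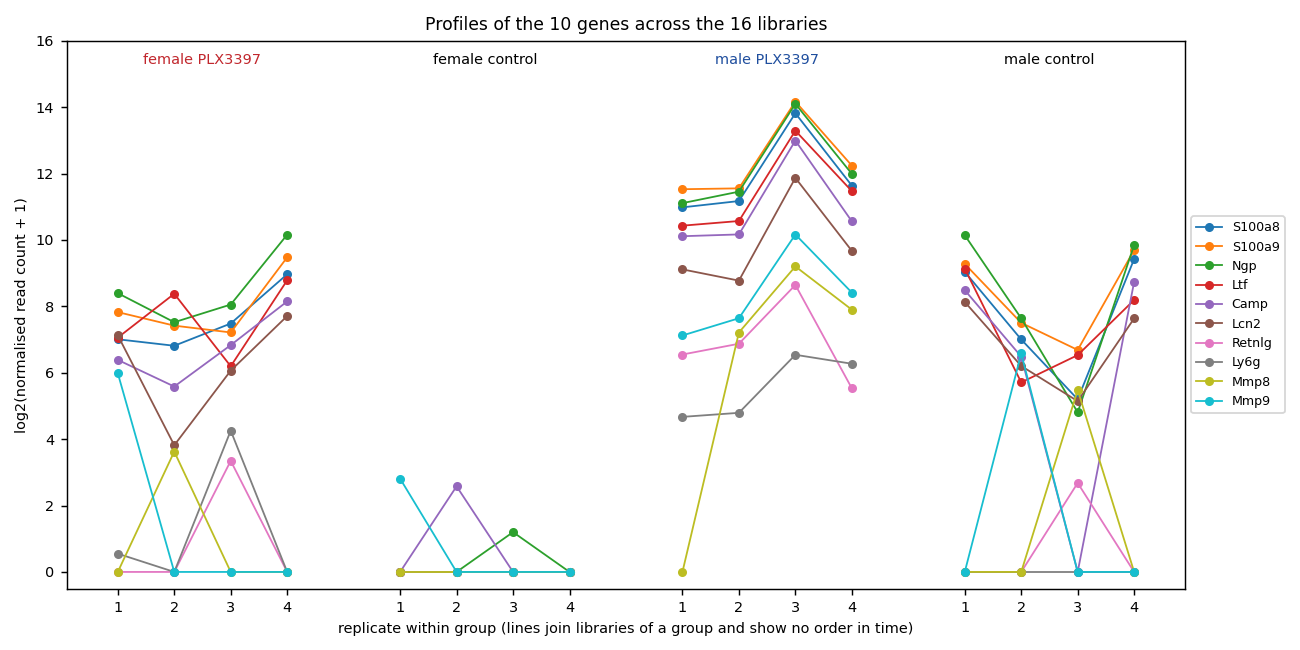
Level of the 10 genes as log2(normalised read count + 1) in each of the 16 libraries, 1 colour per gene, with lines joining the libraries of a group. The lines of S100a8, S100a9, Ngp, Ltf, Camp and Lcn2 run nearly parallel in males on PLX3397 and all 10 peak in replicate 3, those of females on PLX3397 peak in replicate 4 for 6 genes, and those of male controls cross.

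**Figure D3:**
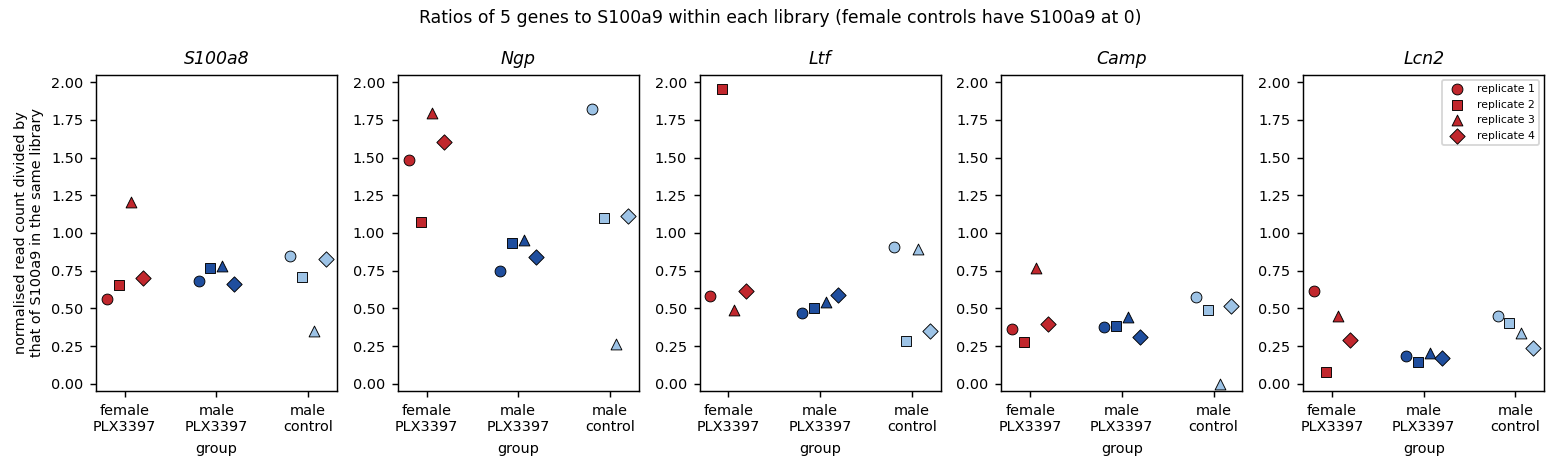
Level of 5 genes divided by that of S100a9 in the same library, by group, with the 4 replicates as symbols. The ratios of the 4 males on PLX3397 lie close together (S100a8 at 0.659 to 0.784), while those of females on PLX3397 and of male controls are spread more widely.

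In females on PLX3397, replicate 4 was highest for S100a8, S100a9, Ngp, Ltf, Camp and Lcn2, and the other 4 genes had their highest value in another replicate. In male controls, replicate 1 was highest for Ngp, Ltf and Lcn2, and replicate 4 for S100a8, S100a9 and Camp. The low-level genes did not follow there: Mmp9 was highest in replicate 2, and Retnlg and Mmp8 in replicate 3.

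Because the sexes form separate clusters of level on each chow, co-variation is given as deviations of log2(value + 1) from the group mean. Over the 8 libraries on PLX3397, S100a8 was correlated with Camp at Pearson r = 0.986 and Spearman rho = 0.952 (exact permutation p = 0.00020 and 0.0011, adjusted p = 0.0034 and 0.010). With Ngp the values were r = 0.975 and rho = 0.905 (exact permutation p = 0.0012 and 0.0046, adjusted p = 0.0052 and 0.013). With S100a9 they were r = 0.954 and rho = 0.810 (exact permutation p = 0.0056 and 0.022, adjusted p = 0.014 and 0.046). With Lcn2 they were r = 0.813 and rho = 0.857 (exact permutation p = 0.0086 and 0.011, adjusted p = 0.018 and 0.026). With Ltf they were r = 0.759 and rho = 0.50 (exact permutation p = 0.028 and 0.22, adjusted p = 0.043 and 0.29). Retnlg, Mmp8, Ly6g and Mmp9 had r of 0.363, 0.341, 0.216 and 0.109, with adjusted p between 0.48 and 0.83 by the same exact permutation test. Adjustment was over the 17 relations that could be computed on the 2 chows, Ly6g being at 0 in all controls. The permutations exchanged deviations between the sexes, although these had been centred within each group of 4 libraries. These p-values can therefore overstate the evidence, and the values of r and rho are read as a description. Without female PLX3397 replicate 4 and male PLX3397 replicate 3, r was 0.872 for Camp (exact permutation p = 0.017, adjusted p = 0.094) and 0.909 for Ly6g (exact permutation p = 0.0097, adjusted p = 0.094). It was 0.699 for Ngp, 0.469 for Lcn2, 0.332 for S100a9 and -0.219 for Ltf, with exact permutation p between 0.13 and 0.69. None of these 6-library relations passed after adjustment. No relation is thus shown to hold without those 2 libraries. Deviations were still taken from the means of all 4 libraries of a group. The 6-library values therefore cannot tell which relations rest on those 2 libraries.

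Over the 8 controls, deviations of S100a8 were correlated with those of S100a9 at r = 0.988 and rho = 1.0 (exact permutation p = 0.00060 and 0.0012, adjusted p = 0.0051 and 0.010). With Lcn2 they were r = 0.972 and rho = 0.973 (exact permutation p = 0.0012 and 0.0036, adjusted p = 0.0052 and 0.013). With Ngp they were r = 0.959 and rho = 0.936 (exact permutation p = 0.0030 and 0.0036, adjusted p = 0.010 and 0.013). With Camp they were r = 0.904 and rho = 0.767 (exact permutation p = 0.0042 and 0.030, adjusted p = 0.012 and 0.056). With Ltf they were r = 0.771 and rho = 0.946 (exact permutation p = 0.038 and 0.0048, adjusted p = 0.053 and 0.013). Retnlg and Mmp8, above 0 in 1 male control, went the other way, each with r = -0.840 and rho = -0.584 (exact permutation p = 0.018 and 0.19, adjusted p = 0.030 and 0.29). Mmp9 had r = -0.208 and rho = -0.400 (exact permutation p = 0.57 and 0.35). Female controls were at or near 0, so these values rest on the 4 male controls. The permutations exchanged male controls with female controls that hardly varied. These p-values therefore overstate the evidence, and the values of r and rho are read as a description. Without male control replicates 3 and 4 none passed after adjustment (lowest adjusted p = 0.094, exact permutation). The values of r were then 0.983 for S100a9, 0.999 for Lcn2, 0.966 for Ltf, 0.870 for Ngp and 0.579 for Camp. They rest on the few male controls left beside female controls at or near 0. Neither these r nor the lack of a pass can therefore tell whether a relation held without replicates 3 and 4.

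Per kilobase of exon, using union exon lengths of a GRCm38 annotation, S100a9 had the highest median level in males on PLX3397, at 7507 normalised counts per kilobase. S100a8 followed at 3955, Ngp at 2812, Camp at 1753 and Ltf at 631. Lcn2 stood at 261, Retnlg at 176, Mmp8 at 79.3, Mmp9 at 76.1 and Ly6g at 54.6. On this scale S100a9 was also first in females on PLX3397, at 379, ahead of Ngp at 246 and S100a8 at 220.1.

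Genes of other stages of neutrophil maturation were read from lists chosen with earlier results known. Of 5 primary granule genes, none passed the filter on low values. Mpo, myeloperoxidase, measured 0.993, 246, 235 and 0 in males on PLX3397, and Elane, neutrophil elastase, measured 0, 206, 373 and 1.09 there. Prtn3, proteinase 3, measured 0, 38.4, 122 and 0, and Ms4a3, a gene of granulocyte and monocyte progenitors, measured 0, 18.2, 144 and 0 in the same libraries. These 4 genes were high in replicates 2 and 3 of males on PLX3397, and at most 7.41 in every library of the other groups. Ctsg, cathepsin G, was listed at 0 in all 16 libraries. The transcription factor gene Gfi1 was above 0 in the same 2 libraries, at 2.82 and 16.8, and in no other.

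Of 15 further granule genes, 8 were called higher and 0 lower in males on PLX3397, where 4.16% of all genes tested were called higher. They were Olfm4, Pglyrp1, Hp, Slpi, Wfdc21, Ifitm6, Anxa1 and Cybb. Slpi and Ifitm6 passed the filter only through males on PLX3397, so the count of 8 is a description and is not read against that share. Hp, haptoglobin, measured 270, 177, 966 and 251 in males on PLX3397, against 15.8, 0, 0 and 95.1 in male controls (log2 fold change 5.70 ± 1.35, SE; limma adjusted p = 0.010). Cybb, the catalytic subunit of the phagocyte NADPH oxidase, which microglia also express, rose by a log2 fold change of 2.76 ± 0.40 (SE; limma adjusted p = 0.00022). In females 4 of the 15 were called higher, namely Olfm4, Anxa1, Adam8 and Cybb, and 0 lower, where 2.67% of all genes tested were called higher. Between the sexes on PLX3397, 4 of the 15 were lower in females, namely Pglyrp1, Hp, Slpi and Wfdc21, where 1.15% of all genes tested were called lower. This count also includes Slpi, and is a description for the same reason. Chil3, a chitinase-like gene of neutrophils and macrophages, did not pass a test, at 65.5, 70.2, 139.6 and 411 in females on PLX3397, 0, 0, 98.5 and 0 in female controls, 407, 767, 4879 and 876 in males on PLX3397, and 239.9, 0, 35.8 and 303 in male controls. Its highest library was again male PLX3397 replicate 3.

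Of 20 genes of mature neutrophils, 7 passed the filter, and 2 of these were called higher by limma in males on PLX3397 and 0 in females, where 0 had an unadjusted p under 0.05. The 2 were Trem3, a receptor of myeloid cells, and Padi4, an enzyme that citrullinates histones. Both passed the filter only through males on PLX3397, the group in which they were high, so their calls are descriptions only. Padi4 measured 25.6, 56.7, 109 and 145 in males on PLX3397, and 12.7, 0, 0 and 17.98 in male controls (log2 fold change 4.13 ± 0.96, SE; limma adjusted p = 0.0089), and was listed at 0 in all 8 female libraries. Trem3, Padi4 and Csf3r, the G-CSF receptor, were lower in females than in males on PLX3397. Csf3r was abundant in all 16 libraries, at 23268.5 to 41792. Cxcr2, a chemokine receptor of neutrophils, measured 225, 202, 592 and 246 in males on PLX3397 and 195, 216, 191 and 207 in male controls, without passing the test. Cxcr1 was listed at 0 in all 16 libraries.

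Among 6 factors of granulocyte differentiation, Cebpe, the factor of the secondary granule stage, was lower in females than in males on PLX3397 (log2 fold change -4.58 ± 0.96, SE, females minus males; limma adjusted p = 0.015). It measured 0, 0, 0 and 3.07 in females on PLX3397 and 26.2, 23.2, 87.1 and 22.1 in males on PLX3397. Cebpe too passed the filter only through males on PLX3397. Cebpa rose in males (log2 fold change 0.92 ± 0.20, SE; limma adjusted p = 0.0064), Spi1, which encodes PU.1, fell there (-0.33 ± 0.08, SE; limma adjusted p = 0.015), and Cebpd fell in males and in females. The lowest level of these 3 in any library was 2623 for Cebpa, 1349.7 for Cebpd and 15809 for Spi1. Of 9 chemokine and cytokine genes of neutrophil recruitment, 2 passed the filter and 0 were called by limma in any comparison, with 1 at an unadjusted p under 0.05, between the sexes on control chow. Csf3 and Il17a were listed at 0 in all 16 libraries.

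Markers of other blood and brain cells were read in the same libraries. Of 9 monocyte markers, 7 passed the filter and 0 were called by limma in either response to PLX3397, with 3 in males and 2 in females at an unadjusted p under 0.05. Ly6c2, a marker of inflammatory monocytes and of developing neutrophils, measured 3.06, 3.36, 2.08 and 39.3 in females on PLX3397, and 6.75, 180.5, 833 and 866 in males on PLX3397 (log2 fold change -4.71 ± 1.28, SE, females minus males; limma adjusted p = 0.044). Ly6c2 passed the filter only through males on PLX3397. Ccr2, the chemokine receptor that brings inflammatory monocytes into tissue, measured 282, 164, 141 and 150.3 in females on PLX3397, and 527, 409.6, 253 and 379.8 in female controls. It measured 256, 197.5, 83.9 and 122 in males on PLX3397, and 204, 291, 297 and 339 in male controls. Ccr2 did not pass the test in females (log2 fold change -1.10 ± 0.33, SE; limma adjusted p = 0.072) or in males (-0.88 ± 0.33, SE; limma adjusted p = 0.11), and its lowest library was male PLX3397 replicate 3, the one highest for the 10 genes. The summed level of the 9 monocyte markers was 589 to 873 in females on PLX3397 and 607 to 911 in female controls. In males it was 939 to 1613 on PLX3397, highest in replicate 3, and 673 to 911 on control chow. Ly6c2 alone made up 833 of the 1613 in male PLX3397 replicate 3, and 866 of the 1527 in replicate 4. The higher sums of these libraries thus rest largely on Ly6c2 and are not read as a rise of the list. Ccr2 did not follow the sum of its list in male PLX3397 replicate 3. Of 7 erythroid markers, 5 passed the filter, Hbb-bs fell in females (limma adjusted p = 0.040) and 0 others were called. Their summed level was 0 to 47.6 in females on PLX3397, 37.5 to 1206 in female controls, 4.39 to 636 in males on PLX3397 and 13.0 to 1697 in male controls, with the highest on PLX3397 in male replicate 3. Of 7 astrocyte markers, 2 were called higher in females (Gfap and Aldoc) and 2 in males (Aldoc and S100b), and 0 lower. Their summed level was 525 to 1028 in females on PLX3397, 241 to 391 in female controls, 498 to 1186 in males on PLX3397, highest in replicate 3, and 252 to 354 in male controls. Astrocytes are among the other sources of Lcn2. Of 6 platelet markers, 5 passed the filter, and in each sex Tubb1 was called higher and Gp9 lower. Their summed level was 438 to 576.5 in females on PLX3397, 1521 to 2529 in female controls, 227 to 620 in males on PLX3397 and 1607 to 1741 in male controls. Of 7 endothelial and 7 B cell markers, 4 each passed the filter, and in each sex Pecam1 and Ighm fell and 0 others were called. Of 5 eosinophil markers, 2 passed, and Siglecf fell in females. Of 8 T cell, 6 natural killer cell and 5 basophil and mast cell markers, 3, 1 and 1 passed, and 0 were called by limma in either sex, with 0 at an unadjusted p under 0.05. Of 8 border macrophage markers, 6 fell in males and 4 in females. Of 10 microglia markers, 9 fell in males, and 7 fell and 1 rose in females. Between the sexes on PLX3397, 9 were higher in females and 0 lower, where 4.28% of all genes tested were called higher, a share that changed with the scaling. Their summed level was 1745810 to 1962320 in females on PLX3397 and 1107880 to 1547220 in males on PLX3397. On control chow 0 were called between the sexes. The part of any of these cells in the levels of the 10 genes was not tested.

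**Figure D4:**
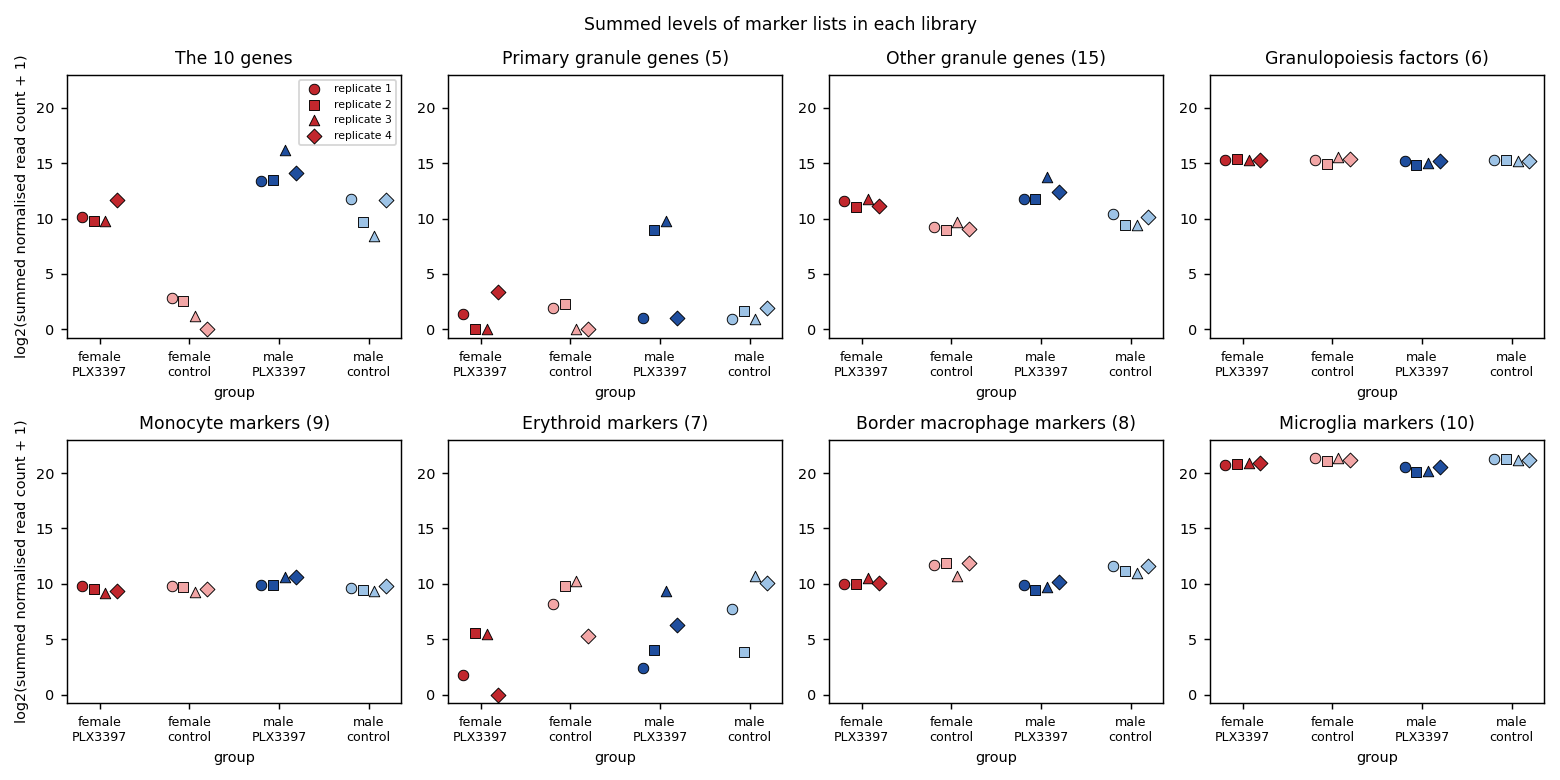
Summed level of 8 gene lists in each library as log2(sum of normalised read counts + 1), by group, with the 4 replicates as symbols. The sums of the 10 neutrophil genes run from 0 in a female control to 74506 in a male on PLX3397, primary granule genes stand out in male PLX3397 replicates 2 and 3, and microglia markers are high in all 16 libraries.

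The 10 genes outside the list whose deviations from their group means were most like the mean deviation of the 10 members over the 16 libraries were Ptgdr, Fbxo31, Ext1, Dck, Gm15518, Cbfb, Gm20275, Sptssa, Trim33 and Gm6361, with Pearson r from 0.784 to 0.863. None of them is on a list of neutrophil genes used here. The tested genes of those lists ranked from 35 for Cxcr2 (r = 0.722) to 17166 for Cebpa (r = -0.313) among 19584 genes. Wfdc21, Ifitm6 and Cebpe ranked 76, 82 and 93, while Slpi and Csf3r ranked 10000 and 12150. By level of log2(value + 1) in place of deviations, a measure chosen after seeing the data, the 10 most alike were Adam23, Anxa1, Wfdc21, Pglyrp1, Wdr90, mt-Co2, Ankrd12, Hp, Gm42503 and Serpinb1a, with r from 0.867 to 0.922. Anxa1, Wfdc21, Pglyrp1 and Hp are on the list of further granule genes. These values describe likeness over libraries that share group, depth and sorting, and carry no p.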

How the data were processed

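RNA of sorted cortical microglia was measured in 16 libraries of 4 groups, made from 500 pg of total RNA and 150 pg of cDNA per the labels' protocols. The values are a signal that the authors deposited for each gene, which the table's name and the spacing of its low values give as read counts scaled by a factor of the library. Per the submitters' processing notes, the build was GRCm39 and the tools were Salmon 1.5.2, featureCounts 2.0.1, STAR 2.7.9a, bcl2fastq 2.19.1 and Subread, with their roles not given. The formula of the normalisation is not given in the sources used here. Whole reads were not recovered, so count models and counting intervals were not used. Preamplified low-input cDNA without molecular identifiers can make low values uneven between libraries.

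Symbols came from a table that named 51029 of the 53850 identifiers. A filter (a value of 10 or more in 4 or more libraries) left 19594 genes. Values, as log2 after adding 1, went into limma 3.58.1 under R 4.3.3 (intensity trend, 1 mean per group over 16 libraries, two-sided, Benjamini-Hochberg adjusted p under 0.05). The procedure was tested on simulated data. Correlations were tested by two-sided exact permutation in Python 3.11.15. The replicate numbers did not pair the samples. Promoters are of build GRCm38.p6, and no coordinates of the files were converted.

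All 10 genes are named, with members of 17 other lists that passed a test or stood at 0, and the 10 genes most alike in their deviations. The text names part of what this rule gave, and adds Mpo, Elane, Prtn3, Ms4a3, Gfi1, Chil3, Cxcr2 and Ccr2, whose values were seen first. The members, lists and tests were chosen with earlier results of these data known. Voom weights, deviations without the 2 farthest libraries, and likeness by level were added after seeing the data.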

Additional observations from a re-analysis of the deposited data

Results flagged for a closer look

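In 18 of the 32 groups of 4 values that could be tested, 1 library stood apart from the other 3 by Dixon's criterion. The criterion was applied to normalised counts without a log, on which high values lie farther apart than on a log scale. Its chance rate of about 1 in 20 groups holds for normally distributed values. Groups with 3 values at 0 and 1 above 0 are flagged by their shape. The 18 are therefore a description and are not read against that rate. Male PLX3397 replicate 3 stood above its group for S100a8 (14419), S100a9 (18393), Ngp (17562), Ltf (10016), Camp (8153) and Lcn2 (3739). Female PLX3397 replicate 4 stood above its group for S100a9 (712) and Ngp (1142). The other cases were single libraries above 3 at or near 0. In females on PLX3397 these were Mmp9 in replicate 1 (62.3), Mmp8 in replicate 2 (11.3), and Retnlg (9.18) and Ly6g (18.1) in replicate 3. In female controls they were Mmp9 in replicate 1 (6.01), Camp in replicate 2 (4.97) and Ngp in replicate 3 (1.30). In male controls they were Mmp9 in replicate 2 (94.6), and Retnlg (5.41) and Mmp8 (43.6) in replicate 3. The cause of these single values was not tested.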

How the results depend on the processing

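Each of the 10 genes was recomputed in the 5 comparisons under the alternatives. With 1 library left out, 775 values kept direction and side of the threshold, 18 lost a call, 5 gained one and 2 changed sign. Under the others the numbers were 540, 30, 4 and 1. The sign changes were all of values that did not pass the test: Mmp9 in females without female PLX3397 replicate 1 (-0.70, and up to 1.496 with other libraries left out), Mmp9 between control sexes without male control replicate 2 (0.70, and down to -1.65 with others), and the difference between responses of Camp with pseudocount 5 (-0.20). The number of genes lower in females than in males on PLX3397 (8) was 3 with the groups compared alone, 5 with voom weights, 4 with both male PLX3397 replicate 3 and male control replicate 4 removed, and 4 to 9 with each library left out. With voom weights 0 of 6 female calls and 0 of 5 calls between control sexes were made. In males, 7 to 10 genes were called with each library left out. The positive relations with S100a8 past the test numbered 8 on PLX3397 by level, 5 by deviations, 5 without the 2 farthest libraries and 0 by deviations without them. On control chow they numbered 5 by level, 4 by deviations and 0 without the 2 farthest libraries by either measure. The PLX3397 counts by deviations rest on permutations that exchanged centred values between the sexes, so they can overstate the evidence. The control counts rest on p-values that overstate the evidence, as female controls hardly varied. The count of 0 without the 2 farthest libraries is not read as a loss, as few male controls were left. The replicate block ended 1 call, that of Ngp between the sexes on PLX3397 (log2 fold change -3.63; limma adjusted p = 0.054), and correlations of same-numbered samples were -0.0446 to 0.0166. Genes called over the whole table changed more: between the sexes on PLX3397, 838 higher and 226 lower became 26 and 18 with the groups compared alone, 522 and 147 without a filter, 246 higher with quantile normalisation and 158 higher with voom weights, and in males 815 and 1474 became 1571 and 958 with voom weights. The cause of these changes was not tested. In females on PLX3397, Ly6g and Retnlg rest on at most about 16 and 8 estimated reads in a library.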
